A study of Rattus norvegicus with 18 samples.

Results

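Kit with its ligand Kitlg, and Cxcr4 with its ligand Cxcl12, are a pair of ligand-receptor systems of the spermatogonial niche. These are 4 of the 13807 genes named on the arrays, and all probe sets annotated to them were taken, 11 of the 31042 counted: 1 for Kit, 4 for Kitlg, 3 for Cxcl12 and 3 for Cxcr4. All but a Kitlg probe set lie on the first of the array types used, called A here, and that one lies on the other type, B. RNA of 9 cell populations from 22-day-old rats had been hybridised, each to 1 array of each type. Of these, 7 were germ cells: laminin-binding cells and non-binding cells, both labelled as cultured with no day given, cells kept for 1, 5, 10 or 20 days on feeders of the mouse fibroblast line STO, and cells kept for 20 days on feeders of the mouse Sertoli cell line MSC1. The remaining 2 were testis interstitial cells and tubular somatic cells. The labels give no strain, no number of animals and no treatment beyond the feeders and laminin. There were no replicates, so differences between single libraries carry no error of their own.

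Kit is a receptor tyrosine kinase that is known for its role in differentiating spermatogonia and is also made by Leydig cells and mast cells. Its ligand, stem cell factor, is made in the testis by Sertoli cells and other somatic cells, and exists as a membrane-bound form and as a form released by proteases. Cxcr4 is a G protein-coupled receptor of migrating germ cells, spermatogonial stem cells and leukocytes. Cxcl12 is a chemokine of stromal cells, and Ackr3 is another receptor that binds and removes it.

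Signals are intensities on a linear scale, scaled by the authors to an array average of 250. For folds, signals under a floor of 50 were raised to it, and a difference was called at 3-fold or more if the brighter library reached 250. Where the dimmer signal was raised in this way, the fold is a lower bound and written with "at least". Of the 11 probe sets, 8 reached the floor in at least 1 library and 3 reached 250 in at least 1. Those 3 all belonged to the ligands, namely Cxcl12 (probe sets 1388583_at and 1369633_at) and Kitlg (1388856_at). No probe set of either receptor reached 250 in any of the 9 libraries. Levels of different probe sets are not comparable with each other, so each was compared only between libraries.

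Both ligands with a bright probe set were highest in the interstitial library. Both Cxcr4 probe sets that reached the floor were highest there too (159.0 and 114.2), by 1.04-fold and 1.14-fold over laminin-binding cells. The promoters of both ligands are shown because only these members reached 250. Each runs from 250 bases before to 50 bases after the start used in a promoter table made from RefSeq on the GRCr8 assembly, with GGGCGG and its reverse complement CCGCCC in capitals. That start is the first base of the gene as annotated for Cxcl12 and Cxcr4, whereas for Kitlg and Kit it lies inside the annotated gene span. The Cxcl12 window is chr4:152060531-152060830 on the plus strand, and the Kitlg window is chr7:36782410-36782709 on the plus strand.

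Cxcl12: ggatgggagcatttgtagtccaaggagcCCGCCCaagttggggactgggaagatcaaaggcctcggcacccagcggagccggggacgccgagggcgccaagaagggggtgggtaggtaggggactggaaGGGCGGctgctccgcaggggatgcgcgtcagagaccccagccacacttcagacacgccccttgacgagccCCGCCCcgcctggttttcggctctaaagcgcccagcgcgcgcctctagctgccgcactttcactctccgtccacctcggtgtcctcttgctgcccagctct

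Kitlg: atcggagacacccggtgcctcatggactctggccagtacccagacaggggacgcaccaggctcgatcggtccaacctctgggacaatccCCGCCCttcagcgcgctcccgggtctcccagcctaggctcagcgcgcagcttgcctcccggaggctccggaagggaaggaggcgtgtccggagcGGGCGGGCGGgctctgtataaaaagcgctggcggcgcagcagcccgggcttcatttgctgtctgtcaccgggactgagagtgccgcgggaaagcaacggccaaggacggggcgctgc

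Each of these windows held 3 such matches on both strands together, with a match that overlaps another counted as well. The Cxcr4 window also held 3 matches to this motif, and the Kit window held 1. This motif, a GC box, was present in 34.9% of 27457 promoters of the same length. The sequence ACGTG, a form of the hypoxia response core, and its reverse complement CACGT were in none of the 4 genes' windows. Either was present in 19.7% of all promoters. The other form, GCGTG or its reverse complement CACGC, was in the windows of all 4 genes. Its share over all promoters was not taken. The E-box CANNTG occurred 1 time each in the Kit, Kitlg and Cxcl12 windows and was not in the Cxcr4 window, beside 71.6% of all promoters. The GC content was 66.7% for Cxcl12, 68.0% for Kitlg, 69.0% for Kit and 58.0% for Cxcr4, against a median of 52.3% over all promoters. These matches are descriptions of the sequence.

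Marker genes separated germ from somatic libraries. The 7 germ cell marker genes on the arrays summed to signals of 15253 to 33600 in the germ libraries and 893 and 927 in the interstitial and tubular libraries. The sum over 7 Leydig genes was 8562 in the interstitial library and 948 in the tubular one, and that over 11 Sertoli genes was 7433 and 13691. Of the 11 Sertoli genes, Wt1, Dhh, Clu and Inha were called lower in the interstitial than in the tubular library, and most of the interstitial sum came from Aldh1a1 (3221.3), Cldn11 (1621.0) and Vnn1 (996.1). Sox9 and Amh, which define Sertoli cells, were under the floor in both. Array error was read from 100 probe sets that both types hold. The standard deviation of a log2 fold was 0.25 per array type, so that 2 standard deviations are a 1.40-fold difference. This covers the arrays, not the animals, cultures or amplification. In bulk RNA, fewer cells of a type and less transcript per cell cannot be told apart.

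Cxcl12, on chromosome 4 from 152060781 to 152073628, was a transcript of the interstitial library. By probe set 1388583_at its signal was 3761.5 in interstitial cells, 254.5 on STO day 20, 129.7 on MSC1, 58.1 in tubular somatic cells, 57.4, 53.2 and 48.9 on STO days 10, 1 and 5, 57 in laminin-binding and 34.7 in non-binding cells. By probe set 1369633_at it was 2797.3 in interstitial cells, 195.0 on STO day 20, 119.0 on MSC1, 88.2, 62.7 and 61.6 on STO days 10, 5 and 1, 41.4 in laminin-binding, 38.6 in non-binding and 33.0 in tubular somatic cells. Both probe sets put the interstitial library first, STO day 20 next and MSC1 after it, and the interstitial signal did not overlap with any other.

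The interstitial signal was 14.8-fold and 14.3-fold above that of STO day 20, the next library, by these probe sets. Of all counted probe sets, 455, or 1.47%, were brightest in the interstitial library by at least 3-fold over each of the 8 others, a rule chosen after the data were seen. The pair ranked 43 and 45 among those 455 by that fold. Over tubular somatic cells the interstitial signal was 64.7-fold higher by 1388583_at and at least 55.9-fold higher by 1369633_at. Over laminin-binding cells it was 66.0-fold higher and at least 55.9-fold higher. Among the libraries below MSC1 that reached the floor, neighbours in the order of 1388583_at differed by less than 1.40-fold. In the order of 1369633_at, MSC1 and STO day 10 differed by 1.35-fold, STO days 10 and 5 by 1.41-fold and STO days 5 and 1 by 1.02-fold. Libraries under the floor have no order.

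Genes of other cell types were bright in the interstitial library too. The sum over 8 fibroblast genes was 22918 there, 4225 in tubular somatic cells and 818 to 4430 in the germ libraries, and the Leydig sum was 8562, 948 and 185 to 815. The sum over 6 endothelial genes was 490 in interstitial cells, 458 in tubular somatic cells and 266 to 629 in the germ libraries. Their part in the Cxcl12 signal was not tested.

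The third Cxcl12 probe set, 1387655_at, did not reach the floor in any library. Its signal was 3.0 to 15.2, although its design record is the one that 1369633_at was made from. The lowest was non-binding cells and the highest was interstitial cells. The annotation does not say which stretch of the transcript each one detects.

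**Figure D1:**
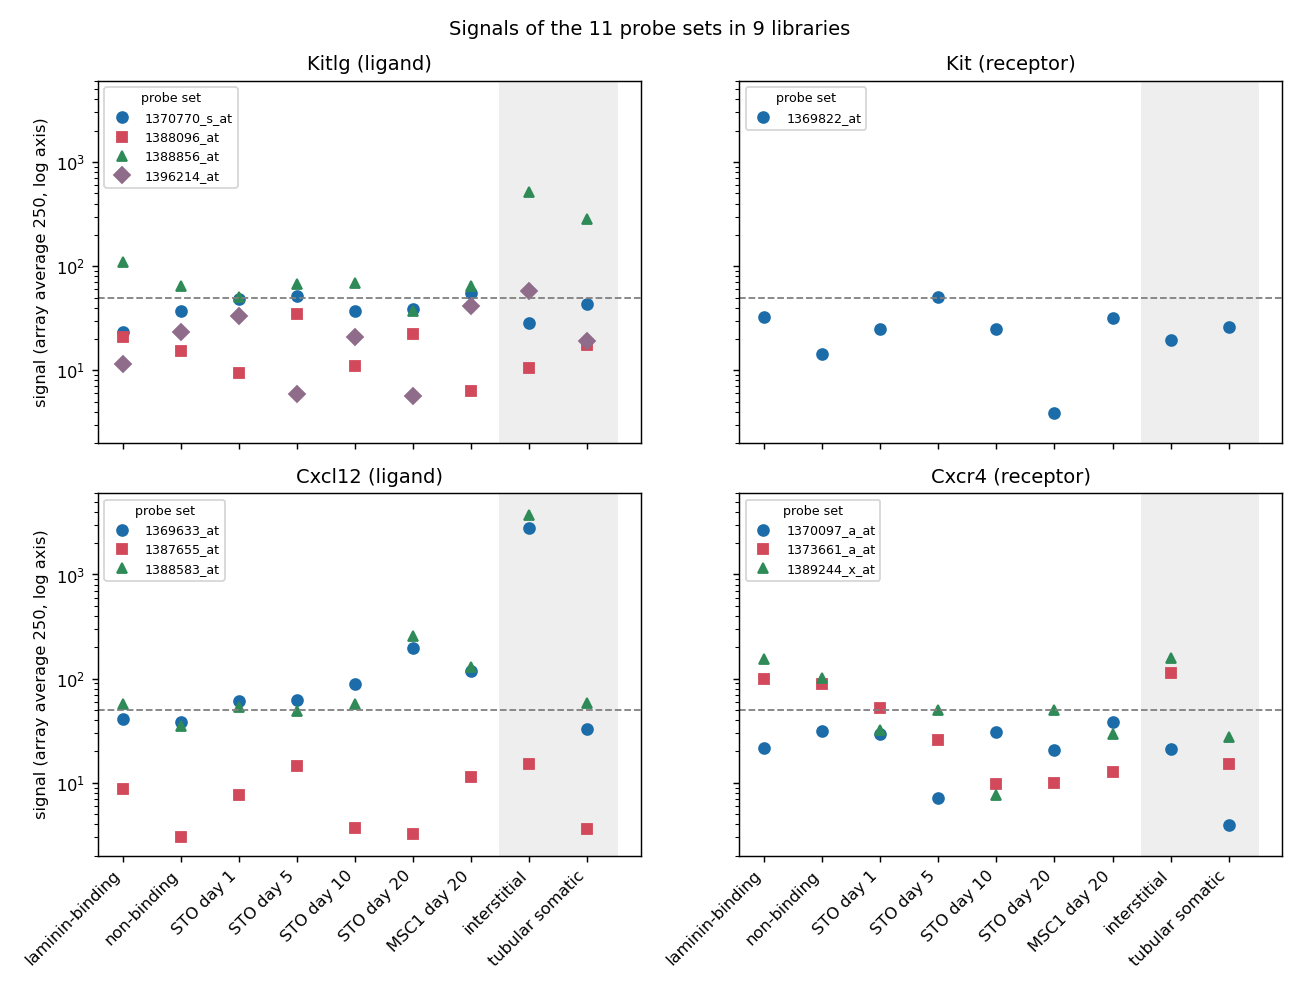
Signal (log axis, array average 250) of each of the 11 probe sets in the 9 libraries, 1 array each, with the ligands Kitlg and Cxcl12 on the left and the receptors Kit and Cxcr4 on the right. The dashed line is the floor of 50 and the grey band holds both somatic libraries; Cxcl12 reached 3761.5 and 2797.3 in interstitial cells, Kitlg 520.7, and neither receptor went above 159.0.

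Kitlg, on chromosome 7 from 36782621 to 36863796, was brighter in both somatic libraries than in all germ libraries by 1 of its 4 probe sets. By 1388856_at the signal was 520.7 in interstitial cells, 281.2 in tubular somatic cells and 110.2 in laminin-binding cells. It was 69.4 on STO day 10, 67.0 on day 5, 64.8 in non-binding cells, 64.0 on MSC1, 50.7 on STO day 1 and 37.2 on STO day 20. The 2 somatic libraries thus lay above the 7 germ libraries with no overlap, and the lower of them was 2.55-fold above laminin-binding cells, the highest germ library. Both somatic libraries stood above all germ libraries in 7.04% of all counted probe sets, and all germ libraries above both somatic libraries in 8.01%.

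Interstitial cells were 1.85-fold above tubular somatic cells, which passes the 1.40-fold of the arrays but not the 3-fold threshold. Laminin-binding cells were 1.59-fold above the next germ library, and the germ libraries from STO day 10 to STO day 1 in that order differed from their neighbours by at most 1.26-fold. STO day 20, the lowest, was under the floor. Against laminin-binding cells the interstitial signal was 4.73-fold higher. Against the other germ libraries it was 7.50-fold to 10.3-fold higher, and at least 10.4-fold higher than on STO day 20. The fibroblast and Leydig sums given for Cxcl12 were likewise higher in interstitial than in tubular somatic cells, and the Sertoli sum went the other way between these libraries, with 916 to 2155 in the germ libraries. The part of these cells in the Kitlg signal was not tested.

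The other 3 Kitlg probe sets did not show this pattern. Probe set 1370770_s_at read 23.5 to 55.6 with MSC1 highest, and 43.0 in tubular somatic and 28.3 in interstitial cells. Probe set 1388096_at read 6.4 to 34.8 and did not reach the floor. On type B, 1396214_at read 5.7 to 58.1, with 58.1 in interstitial cells, its only library at the floor or above, and 19.1 in tubular somatic cells. The statement on Kitlg therefore rests on a single probe set.

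Kit, on chromosome 14 from 32901615 to 32978895, gave a dim signal in every population. Its only probe set, 1369822_at, read 50.2 on STO day 5, 32.7 in laminin-binding cells, 31.6 on MSC1, 25.9 in tubular somatic cells, 25 on STO days 1 and 10, 19.4 in interstitial cells, 14.3 in non-binding cells and 3.9 on STO day 20. Only STO day 5 reached the floor, in the type A library with the largest scale factor, 1.512. With the scaling undone the order changed, and all 9 values lay between 5.82 and 49.6, with interstitial cells highest. On each array between 5.52% and 29.8% of type A probe sets were dimmer than Kit. No fold between libraries can be given for the receptor, and with no detection calls among the values this does not show that the transcript was absent. Of 8 mast cell genes on the arrays, which mark another Kit-bearing cell type, none reached 250 in any library.

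Cxcr4, on chromosome 13 from 42630383 to 42634288, was above the floor in both laminin-sorted germ cell libraries and in interstitial cells, at a low level. By 1389244_x_at the signal was 159.0 in interstitial, 152.9 in laminin-binding and 102.0 in non-binding cells. It was 50.3 on STO day 5, 49.8 on day 20, 32.1 on day 1, 7.7 on day 10, 29.3 on MSC1 and 27.6 in tubular somatic cells. By 1373661_a_at it was 114.2 in interstitial, 99.9 in laminin-binding, 88.7 in non-binding cells and 52.0 on STO day 1. The remaining libraries read 9.8 to 26.0 by that probe set. The same 3 libraries were the brightest by both, above the 5 feeder libraries and the tubular library. This split was seen in the values, and its share over all counted probe sets was not taken. The 3' to 5' signal ratio of Gapdh on type A, which grows as RNA is shortened, divided the libraries the same way. It was 7.94 in interstitial, 7.07 in laminin-binding, 5.63 in non-binding and 11.2 in tubular somatic cells, and 14.7 to 29.7 on feeders. Its part in the Cxcr4 signal was not tested.

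Laminin-binding cells were at least 3.06-fold above STO day 1 by 1389244_x_at and 1.92-fold above it by 1373661_a_at. They were 1.5-fold and 1.13-fold above non-binding cells, and interstitial cells were 1.04-fold and 1.14-fold above laminin-binding cells. None of these folds is a call, since no side reached 250. The pair of probe sets was made from the same design record, so their agreement, with a correlation of log2 signal of 0.99 over the 9 libraries, is not that of independent measurements. By the naming of these arrays, the ending _x_at marks probes that may bind other transcripts too. The third probe set, 1370097_a_at, read 3.9 to 38.3 and was under the floor in every library. In interstitial cells 3 macrophage genes were bright as well, with Cd68 at 1047.3, Cd14 at 450.8 and Lyz2 at 331.4. Lyz2 read 437.5 on STO day 20 and 1103.4 on MSC1, where both of these Cxcr4 probe sets were under the floor. The whole list of 8 macrophage and leukocyte genes summed to 2217 in interstitial cells and to 339 in tubular somatic cells. The list summed to 403 in laminin-binding and 465 in non-binding cells, and to 339 to 1685 in the 5 feeder libraries, where MSC1 was highest. Itgam was under the floor in all 9 libraries and Tyrobp in all but MSC1. The part of these cells in the Cxcr4 signal was not tested.

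Laminin-binding cells did not differ from non-binding cells by 3-fold in any of the 11 probe sets. The brightest signal of the 11 in these libraries was 152.9, for Cxcr4 by 1389244_x_at in laminin-binding cells. With no signal at 250, no call was possible. The absence of calls can therefore not be weighed against all counted probe sets, of which 3.65% were higher and 3.82% lower. Kitlg by 1388856_at read 110.2 against 64.8 in this comparison, a 1.70-fold difference. Against tubular somatic cells none of the 11 was called either, beside 4.79% of all higher and 5.25% lower. Only Kitlg by 1388856_at could be called, since no other member reached 250. It read 281.2 in tubular somatic cells and was 2.55-fold lower in laminin-binding cells. Cxcr4 by 1389244_x_at was at least 3.06-fold higher in laminin-binding cells (152.9 against 27.6), with a brighter side under 250. Against interstitial cells 3 of 11 were lower in laminin-binding cells, beside 6.84% of all. These were the bright Kitlg probe set and both bright Cxcl12 probe sets. None could be called higher, beside 5.77% of all, since no member reached 250 in laminin-binding cells. Between the somatic libraries 2 of 11, both for Cxcl12, were lower in tubular somatic cells, beside 3.17% of all. None was higher, beside 2.54%, and only Kitlg by 1388856_at reached 250 in tubular somatic cells.

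On STO feeders the Cxcl12 signal was highest on day 20. The values on days 1, 5, 10 and 20 were 53.2, 48.9, 57.4 and 254.5 by 1388583_at and 61.6, 62.7, 88.2 and 195.0 by 1369633_at. Days 1 to 10 were near the floor by both probe sets, and day 20 was above all of them. Day 20 was 4.78-fold above day 1 by 1388583_at, the only 1 of 11 called higher, beside 2.0% of all. None could be called lower, beside 2.64%, since no member reached 250 on day 1. By 1369633_at day 20 was 3.17-fold above day 1, with a brighter side under 250 and so no call. With a floor of 100 the first of these folds was 2.55, also no call. From day 10 to day 20 the steps were 4.43-fold and 2.21-fold.

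The trend over the 4 STO libraries was tested with limma's moderated test on log2 culture day, adjusted by the Benjamini-Hochberg method. The Cxcl12 slopes were 0.41 ± 0.20 (SE) by 1388583_at and 0.34 ± 0.16 by 1369633_at, as log2 change per doubling of the day, over 4 libraries. The limma adjusted p was 0.574 and 0.556, so neither passed 0.05. Of 16066 probe sets tested by limma none passed, 0.00% rising and 0.00% falling, and 1500 had an unadjusted p under 0.05. With culture day on a linear scale, limma gave 1388583_at an adjusted p of 0.0305, with 1425 of 16066 probe sets called. Without day 1 its limma adjusted p was 0.0155, with 1814 called, and without day 20 no member passed. The error in this test joins the scatter of 4 libraries around the line, with 2 residual degrees of freedom, to a pooled variance. That variance is estimated by limma over all tested probe sets of an array type. Neither part comes from repeated cultures, and fewer degrees of freedom remain when a day is left out. No other member had the mean signal of 100 that the test asked for.

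Transcripts of other cell types were also higher on STO day 20 than on day 1. The sum of 8 fibroblast genes was 1506, 1580, 1744 and 4430 on days 1, 5, 10 and 20, and 4 of the 8 were called higher on day 20 than on day 1, among them Col1a1, a collagen chain, at 132.9 and 539.9. Pdgfra, a fibroblast receptor gene, read 469.6 on day 1 and 300.3 on day 20. The sum of 7 Leydig genes was 213, 263, 185 and 815, of which Star, which carries cholesterol into mitochondria (62.5 and 404.1 on days 1 and 20), and Hsd11b1 (8.3 and 257.9) were called. Cyp11a1 read 57.9 and 50.3, and Hsd3b1, Cyp17a1 and Lhcgr were under the floor on both days. Of the macrophage genes Lyz2 was called, at 65.1 and 437.5. The 3' to 5' signal ratio of Gapdh on type A, which grows as RNA is shortened, was 20.7, 20.6, 29.7 and 14.7. The part of these in the Cxcl12 signal was not tested, nor was that of RNA from the mouse feeder cells. On MSC1 the fibroblast sum was 3645 and Cxcl12 read 129.7 and 119.0, which was 1.96-fold and 1.64-fold below STO day 20. None of the 11 probe sets was called between MSC1 and STO on day 20, beside 2.83% of all higher and 2.34% lower. Only Cxcl12 by 1388583_at reached 250 in either library, at 254.5 on STO day 20, so no other member could be called.

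**Figure D2:**
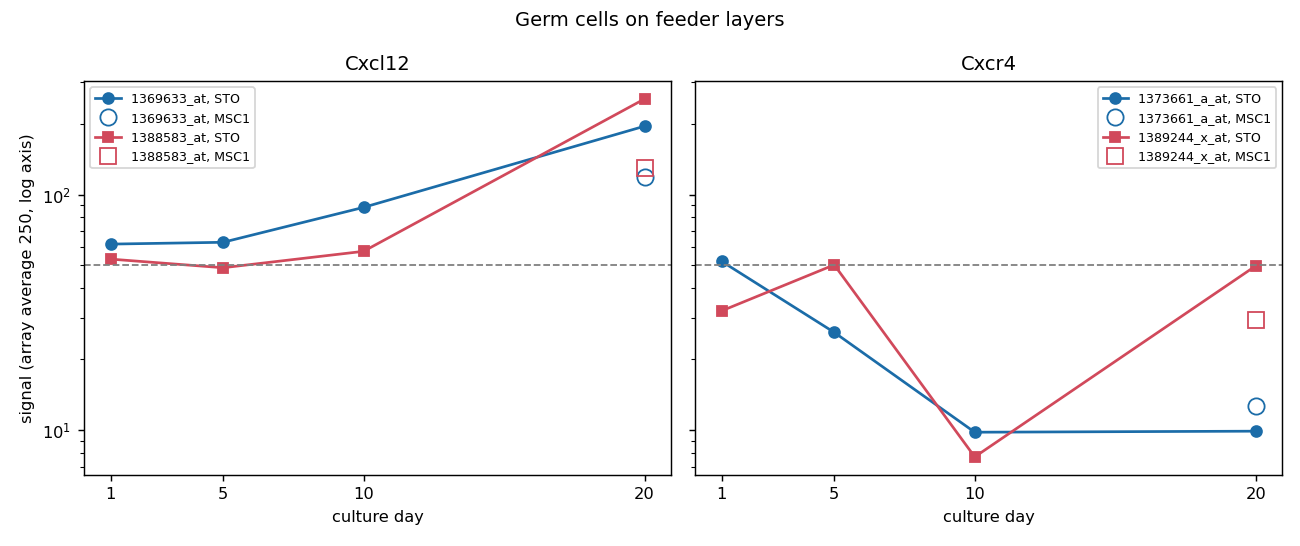
Signal (log axis, array average 250) of the 2 bright Cxcl12 probe sets (left) and the 2 Cxcr4 probe sets that reached the floor (right) against culture day. Filled symbols joined by lines are the 4 STO libraries, open symbols are the MSC1 library on day 20 and the dashed line is the floor of 50; Cxcl12 reached 254.5 and 195.0 on STO day 20, and Cxcr4 stayed at or below 52.0 on feeders.

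The other Cxcl12 receptor, Ackr3, was also brightest in interstitial cells. Its signal was 1252.7 in interstitial cells, 140.7 in tubular somatic cells, 84.0 on STO day 20 and 75.4 on day 1, and under the floor in the other 5 libraries. It was 8.90-fold higher in interstitial than in tubular somatic cells and at least 25.1-fold higher than in laminin-binding cells. Ackr3 thus had the same brightest library as Cxcl12, but STO days 20 and 1 differed in it by less than 1.40-fold. Dpp4, a peptidase that cuts the N-terminus of Cxcl12, was under the floor in all 9 libraries.

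Of 95 genes listed for the 2 pathways, in 8 lists, 81 were on the arrays, each read from its brightest probe set. A gene was measured in a comparison if at least 1 side reached the floor. Between the somatic libraries 3 of the 81, 68 of them measured, were higher and 3 lower in tubular somatic cells, beside 3.12% and 3.85% of all 13807 genes. The higher ones were Dok1, an adaptor that restrains Kit-type receptors (2898.2 against 495.9), the adhesion adaptor Bcar1 (2131.7 against 413.4) and Mitf, a transcription factor downstream of Kit in pigment and mast cells (419.8 against 135.4). Lower were Ackr3, Adam19, a metalloprotease (98.9 against 345.5), and the S6 kinase gene Rps6kb1 (111.4 against 454.4). The median log2 fold of the measured genes was 0.01, and 0.003 over all measured genes.

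**Figure D3:**
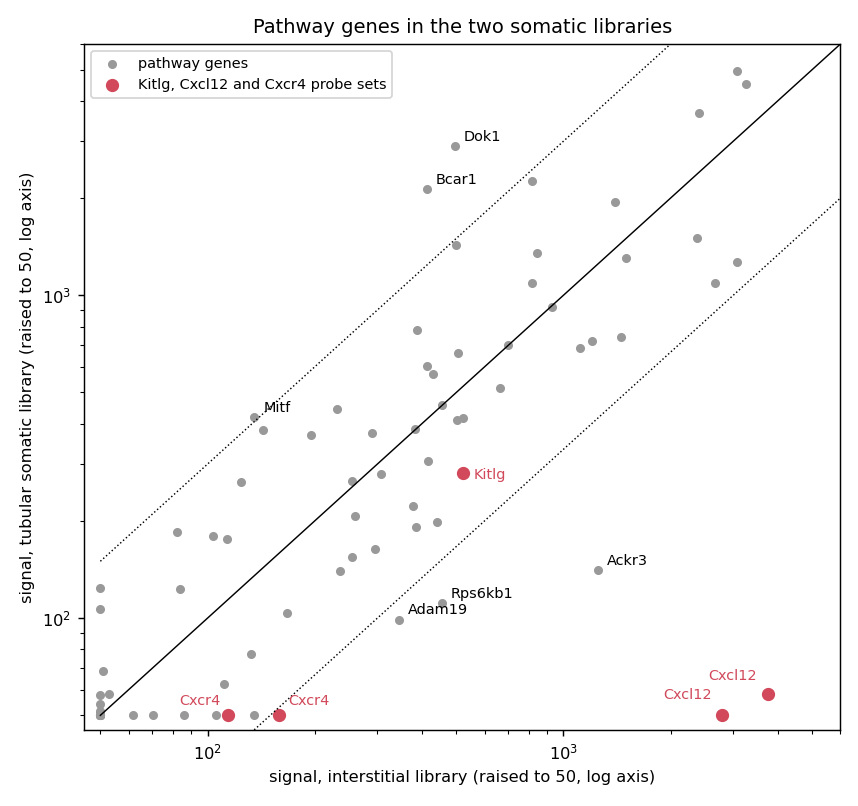
Signal in tubular somatic cells against signal in interstitial cells (log axes, values raised to 50) for the genes of the pathway lists (grey) and the Kitlg, Cxcl12 and Cxcr4 probe sets that rose above 100 in interstitial cells (red). The solid line is equality and the dotted lines a 3-fold difference; both Cxcl12 points lie farthest below the line, and Kitlg lies between the lines at 520.7 and 281.2.

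Among the 4 listed metalloproteases of Kit ligand processing, Adam33 was called lower in laminin-binding cells than in both somatic libraries, beside 8.33% of all genes lower than in interstitial and 6.61% lower than in tubular somatic cells. Its signal was 2659.2 in interstitial and 1094.9 in tubular somatic cells, and 54.7 to 275.7 in the germ libraries. It was 36.3-fold and 14.9-fold higher in these somatic libraries than in laminin-binding cells. Adam19 read 345.5 in interstitial cells and 38.8 to 165.1 elsewhere, with tubular somatic cells at 98.9 within the germ range. Adam17, a broad sheddase, read 1113.3 in interstitial, 685.5 in tubular somatic and 357.2 to 579.0 in germ cells and was not called in any of the 6 comparisons.

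The listed regulators of Kit differed in brightness. Dmrt1, a germ cell and Sertoli cell factor, read 6.7 to 64.5 over the 9 libraries. Sohlh1, a germ cell transcription factor that acts upstream of Kit, read 166.2 to 429.2 in the 7 germ libraries, 54.1 in tubular somatic and 27.5 in interstitial cells. All germ libraries lay above both somatic ones, and laminin-binding cells were 7.79-fold above tubular somatic and at least 8.43-fold above interstitial cells. Foxo1, a factor that the PI3 kinase pathway below Kit inhibits, was 3.95-fold above non-binding cells in the laminin-binding ones (343.8 against 87.0). Of the 9 regulators and partners on the arrays, 3 were higher in laminin-binding than in interstitial cells, beside 7.72% of all 13807 genes, and none was lower, beside 8.33%. Against tubular somatic cells 3 were higher, beside 6.69%, and 1 was lower, beside 6.61%. The median log2 fold of the 7 measured was 1.59 and 1.55, against 0.13 and 0.12 over all genes. Germ cell markers moved further in these comparisons, with 7 of 7 higher and medians of 3.65 and 3.69. Their part in the values of the regulators was not tested.

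Between laminin-binding and non-binding cells, 9 of the 81 pathway genes, 67 of them measured, were higher in the former, beside 4.53% of all genes, and 1 was lower, beside 5.16%. With the mean over the probe sets of a gene in place of the brightest, 4 were called in both directions together in place of 10. Higher were the adaptor gene Shc1 (1613.9 against 445.4), the kinase genes Src (398.5 against 72.0), Fyn (252.8 against 79.1) and Akt1 (1106.6 against 322.2), Dok1 (830.3 against 172.4) and Foxo1. On the Cxcl12 side were Grk2, a kinase that desensitizes G protein-coupled receptors (364.4 against 80.5), Sdc4, a heparan sulfate proteoglycan (830.9 against 266.3), and the G protein subunit gene Gnb1 (2228.7 against 739.6). The lower gene was Cdc42, a small GTPase of cell migration (450.3 against 2615.0). The median log2 fold was 0.52, and 0.21 over all measured genes. In this comparison 3 of 7 germ cell markers were lower and none higher, with a median of -1.44. Of 11 Sertoli genes 1 was higher, Cldn11 (636.8 against 156.5), and none lower, with a median of 0.79. The part of cell types in the pathway values was not tested.

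Against interstitial cells, 6 of the 81 pathway genes, 68 of them measured, were higher in laminin-binding cells, beside 7.72% of all genes, and 8 were lower, beside 8.33%. Besides those above, the higher ones were Grk2 at 4.35-fold, Gnb1 at 4.48-fold, Rgs16, a brake on G protein signalling, at 3.19-fold and Kdm1b, a histone demethylase, at 3.05-fold. The lower ones included the hypoxia genes Hif1a at 4.91-fold and Vegfa at 6.72-fold, and Stat3, a factor below cytokine receptors, at 6.56-fold. In this comparison too the mean over probe sets gave fewer calls, 9 in place of 14. Against tubular somatic cells 3 of the 81 were higher, beside 6.69% of all genes, and 10 lower, beside 6.61%. In the lower group were 5 of 18 G protein and effector genes, namely Cdc42 at 11-fold, Crk at 6.2-fold, Bcar1 at 3.30-fold, Elmo1 at 3.13-fold and Gnai2 at 3.08-fold. The median log2 fold of the 15 measured in that list was -0.85, against 0.12 over all genes.

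From STO day 1 to day 20, 2 of the 81 pathway genes, 72 of them measured, were higher, beside 2.02% of all genes, and 1 was lower, beside 3.54%. Sdc4 read 1871.8, 1179.7, 392.3 and 156.3 on days 1, 5, 10 and 20, an ordered decline of 12.0-fold, while the adaptor gene Crk read 110.1 on day 1 and 475.0 on day 20 and Hif1a 475.2 and 1476.7. Cxcl12, by contrast, was near the floor on days 1 to 10 and highest on day 20. Sdc4 was 14.1-fold higher on MSC1 than on STO on day 20. Between these feeders 4 of the 81 genes, 73 of them measured, were higher on MSC1, beside 3.38% of all genes, and 3 lower, beside 2.57%. With the mean over probe sets, these 7 calls became 2, and the 3 calls between STO days became 1. The others higher were Gnai2 at 8.40-fold, Src at 4.32-fold and Nrf1, a respiratory gene regulator, at 3.34-fold. Lower were Crk at 3.73-fold, the adhesion kinase gene Ptk2 at 3.20-fold and Rps6kb1 at 3.01-fold.

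The genes whose pattern over the 9 libraries was most like that of a member were found by Pearson correlation of log2 signal, on the same array type, among probe sets of 1 gene that reached 250 and varied by at least 3-fold. For Cxcl12 (1388583_at) the first 5 of 4909 candidates were Il6st, the shared receptor chain of the interleukin 6 family (r = 0.98), the kinase gene Prkcb (0.98), Selenop, a selenium carrier (0.98), the matrix protein gene Abi3bp (0.98) and S100b (0.97). Il6st read 2488.9 in interstitial cells and 221.2 on STO day 20, and 85.7 to 173.4 elsewhere. For Kitlg (1388856_at) they were Acsl4, Optn, Smim30l1, Ctbs and Ifi27l2b, each at 0.98, of which Acsl4, a fatty acid ligase, read 952.5 in interstitial and 690.4 in tubular somatic cells. For Cxcr4 (1389244_x_at) they were Rcl1 (0.96), Erh (0.94), Smarcd2 (0.90), Hmox1 (0.88) and Yipf4 (0.87). The points are the same 9 libraries in each case, and for Cxcl12 the interstitial signal stands apart from the 8 others. For Kit no such genes were sought, since only 1 library reached the floor.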

How the data were processed

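The deposited values are intensities, 1 signal per probe set on a linear scale, which per the labels the authors brought to an average of 250 on every array after 2 rounds of amplification of 50 ng of total RNA, with type A factors of 0.391 to 1.512 and type B factors of 1.047 to 4.009. Their software or background treatment is not given in the sources used here, and detection calls are not used here. Type A held 15923 and type B 15333 probe sets. On each, 57 controls were left out, and 100 shared ones were counted on type A alone. Genes come from the platform annotation, with symbols updated through gene IDs to GRCr8. On type A 12789 probe sets had 1 gene, 312 several and 2822 none, and on type B 7570, 100 and 7663.

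Folds and calls used a floor of 50, a minimum of 250 and a fold of 3, with no test. The STO trend used limma 3.58.1 in R 4.3.3, with the variance trend on and a mean signal of at least 100, and was tested on simulated data. Named genes are the members, up to 6 called pathway genes per list and comparison, and the 5 most alike; values of Dpp4, Adam17 and marker genes were added after they were seen. The members and lists were chosen with earlier results of these data known. The number of arrays limits precision.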

Additional observations from a re-analysis of the deposited data

How the results depend on the processing

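Floors of 25 and 100, scaling to the 75th percentile, quantile normalization and a fold of 2 were tried for the members. Of 68 alternatives for counts of calls, 60 stayed within 1.5 times of the value given. Among those 60 were alternatives in which 0 members were called, as with the settings given. They came from laminin-binding against non-binding or tubular somatic cells, MSC1 against STO, and the limma trend. Between laminin-binding and non-binding cells no member was bright enough for a call with the settings given. A count that stayed at 0 there says little about the processing. With a fold of 2, 1 member, Kitlg by 1388856_at, was called between laminin-binding and tubular somatic cells, where none was at a fold of 3. With a floor of 100, 0 members were called between STO days 20 and 1 in place of 1. In the limma trend 1 member was called with culture day on a linear scale, and 0 to 1 with 1 day left out, against 0. Over all 16066 probe sets limma called 0, but 1425 on the linear scale, 1814 without day 1, 15 without day 10 and 24 without day 20. With all probe sets of a gene averaged, the pathway genes called numbered 4 in place of 10 for laminin-binding against non-binding cells, 9 in place of 14 against interstitial cells, 1 in place of 3 for STO days 20 and 1, and 2 in place of 7 for MSC1 against STO; a mean takes in dim probe sets. Direction was checked only for the called member folds and for the trend slopes of both bright Cxcl12 probe sets, and none of these reversed. No paired analysis was possible because each population had 1 array of each type. Signals near the floor limit Kit and Cxcr4.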
